A study of Mus musculus with 16 samples.

Results

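The mitochondrial ribosome proteins were followed through white fat of obese mice as 77 genes, those whose symbol begins with Mrpl or Mrps and a number and that had at least 1 FPKM (fragments mapped to a gene, scaled by transcript length and by the size of the library) in 2 or more libraries. All 77 rows of the table with such a symbol met this minimum, out of 14023 genes in the table and 13669 that met the same minimum and were tested. By symbol 48 belong to the large subunit (Mrpl) and 29 to the small subunit (Mrps). In structures of the mammalian particle the Mrps30 and Mrps18a proteins sit in the large subunit, and Mrps36 is now counted as a subunit of the alpha-ketoglutarate dehydrogenase complex, so the split by symbol differs from the structural one for these 3 genes.

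The mitochondrial ribosome translates the few messages of mitochondrial DNA, which encode core subunits of the respiratory chain and of ATP synthase. Its own proteins are all encoded in the nucleus, made in the cytosol and imported, and many have a bacterial relative while others exist only in mitochondria. Rosiglitazone activates PPARg, the receptor that drives fat cell formation, and in white fat such agonists are known to raise mitochondrial content. No row with the prefix of mitochondrial DNA genes was among the genes tested, so only the nuclear side of this system is described.

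Polyadenylated RNA was measured in epididymal fat (eWAT) and inguinal fat (iWAT). Mice either carried PPARg-K107R on both alleles, an arginine in place of a lysine that takes up SUMO, or had wild-type PPARg (WT). All mice, whatever their genotype, had chow for 10 weeks and then 19 weeks of a diet with 60% of calories from fat. They were then gavaged for 1 week with rosiglitazone at 10 mg/kg body weight in 1% methylcellulose or with that vehicle alone. The groups are thus K107R rosiglitazone, WT rosiglitazone, K107R vehicle and WT vehicle in each depot, 8 groups of 2 libraries and 16 libraries in all, with replicate numbers 1 and 2. Sex and age at the start are not among the labels used here, and nothing in them says whether the libraries of a group came from separate mice or whether both depots came from the same mice. The p-values below thus rest on differences among libraries that could be technical alone.

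The files give FPKM and no counts, so depth is unknown and no counting interval was computed. Between 11442 and 12898 genes reached 1 FPKM per library. Libraries with number 2 had a lower median FPKM over the genes tested (5.64 to 8.33, and 9.30 in eWAT K107R rosiglitazone) than libraries with number 1 (9.38 to 10.1). The white fat markers Adipoq, Plin1, Lep, Cidec, Retn and Pnpla2 summed to 4902 FPKM or more in every library and none of them was at 0 in both libraries of a group. The eWAT K107R vehicle libraries also held 4 epididymis markers (Crisp1, Lcn5, Adam7 and Spink8) at 1800 and 1502 FPKM in sum, against at most 2.78 FPKM in any other library. In whole tissue, fewer cells of a type and less RNA per cell cannot be told apart.

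Each gene was tested on log2(FPKM + 1) with limma over all 13669 genes, and "called" below means a Benjamini-Hochberg adjusted p under 0.05 over all genes. A log2 change of 1 is a doubling of FPKM + 1, and understates the change of genes with low values. Replicate numbers marked a shared deviation between libraries (described at the end), so where a second fit with the replicate number as a block changed a call or moved a count by over 1.5 times, its value for the members is given too. Members named only from that fit were chosen after their values were seen.

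Most members were expressed above the typical gene. On the per-length FPKM scale, the mean level over the 16 libraries ran between 3.08 and 286 FPKM with a median of 32.2 FPKM, against a median of 9.07 FPKM over all genes tested. The median was 26.6 FPKM for large subunit members and 35.4 FPKM for small subunit members. Only 11 members averaged under 10 FPKM, and 75 of the 77 were at 1 FPKM or more in all 16 libraries. The exceptions were Mrpl57, with a lowest value of 0.429 FPKM, and Mrpl1, the relative of bacterial L1, with a lowest value of 0.919 FPKM.

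The highest mean was that of Mrps21, the relative of bacterial S21, at 286 FPKM (201 to 406 FPKM over the libraries). Mrpl20, the relative of bacterial L20, followed at 162 FPKM, then Mrps6 at 121 FPKM, the mitochondria-specific Mrpl52 at 119.5 FPKM and Mrpl33 at 92.0 FPKM. The lowest means belonged to Mrpl19 (3.08 FPKM), Mrpl57 (3.77 FPKM), Mrpl1 (3.79 FPKM), Mrpl17 (4.01 FPKM) and Mrpl35 (4.03 FPKM), all of the large subunit. The ranges of Mrps6, Mrpl52 and Mrpl33 overlapped widely, as did those of the 5 lowest members, so no order within these sets holds beyond the spread between libraries. The 5 highest members were above the 5 lowest in every library.

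**Figure D1:**
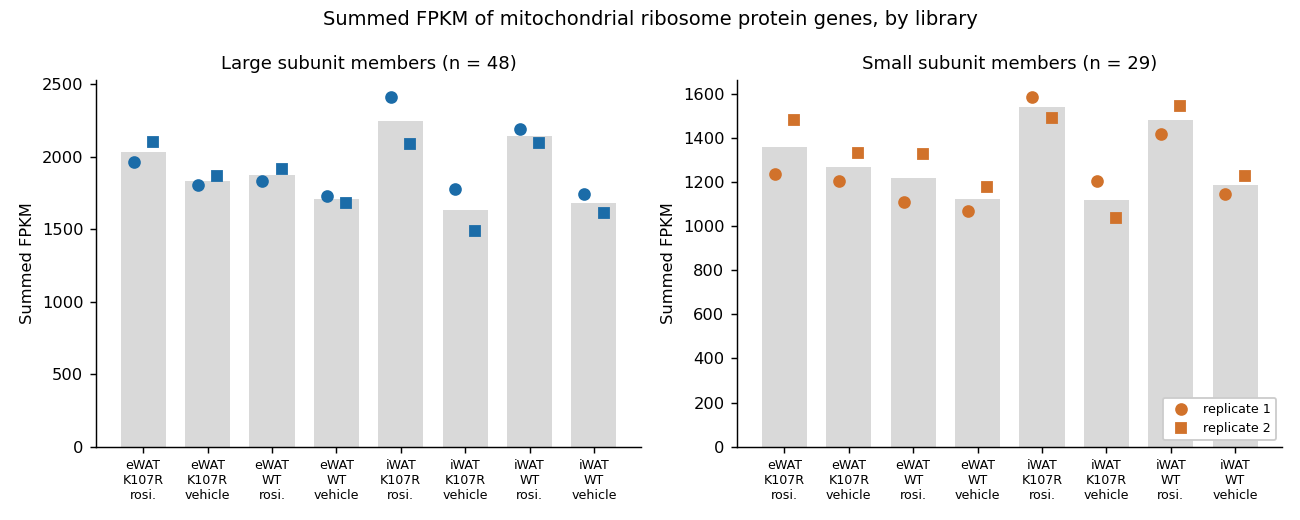
Summed FPKM of the 48 large subunit members (left) and the 29 small subunit members (right) in each library; points are libraries by replicate number and grey bars are the means of the 2 libraries of a group. In iWAT each rosiglitazone point lies above each vehicle point in both panels (lowest total of all 77 members 3575 FPKM with rosiglitazone, highest 2977 FPKM with vehicle).

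The clearest pattern was in inguinal fat after rosiglitazone, where the whole set was higher. Summed over the 77 members, the rosiglitazone libraries of iWAT held 3993 and 3575 FPKM in K107R mice and 3604 and 3640 FPKM in WT mice. The vehicle libraries of iWAT held 2977 and 2522 FPKM in K107R mice and 2890 and 2842 FPKM in WT mice, so the 4 rosiglitazone libraries did not overlap the 4 vehicle libraries. The estimated change was above 0 for 77 of 77 members in K107R iWAT and for 77 of 77 in WT iWAT. The median log2 change was 0.42 in K107R and 0.31 in WT, against 0.03 over all genes tested in each. Large and small subunit members moved by like amounts, with medians of 0.43 and 0.42 in K107R and of 0.30 and 0.33 in WT. Assigning the subunits by structure left the medians at 0.43 and 0.41 in K107R and at 0.30 and 0.33 in WT.

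Same-numbered libraries gave the same picture. Of the 77 members, 74 were higher with rosiglitazone in each of the 4 same-numbered pairs of iWAT libraries, where 27.6% of all genes tested were. The exceptions were Mrpl49, Mrps24 and Mrps6, each of which was not higher in 1 pair: WT replicate 2 for Mrpl49 and K107R replicate 2 for Mrps24 and Mrps6. In 23 members the 4 rosiglitazone libraries of iWAT lay above all 4 vehicle libraries, and in 0 members below them, against 5.68% and 2.6% of all genes tested.

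**Figure D2:**
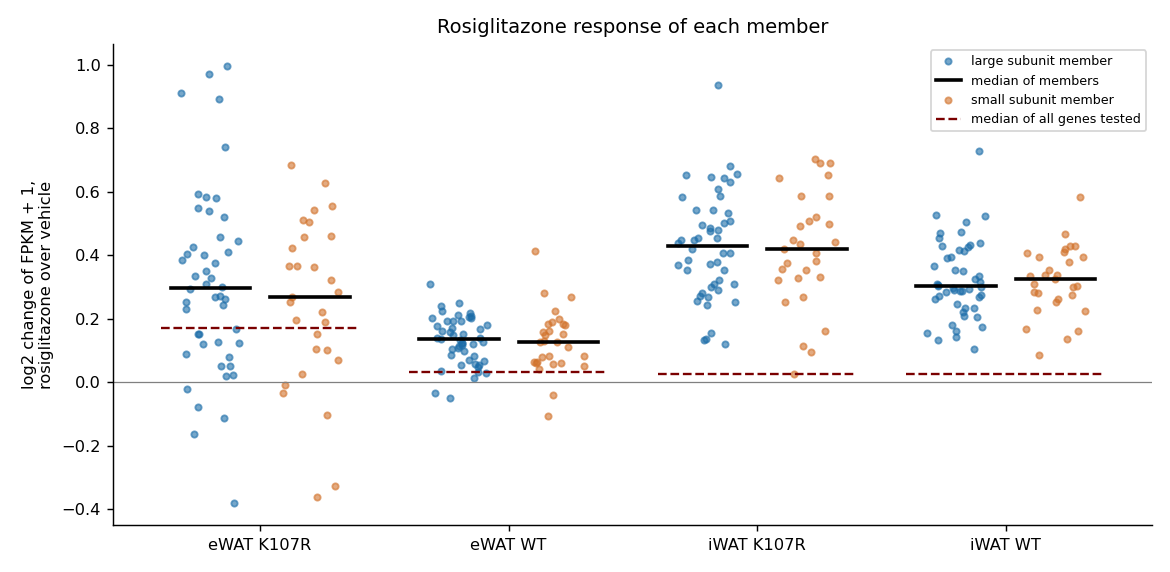
Log2 change of FPKM + 1, rosiglitazone over vehicle, for each of the 77 members (points, large subunit in blue, small subunit in orange) in the 4 combinations of depot and genotype; black bars are medians of members and dashed lines medians of all genes tested. All points lie above 0 in both genotypes of iWAT, with medians near 0.42 in K107R and near 0.31 in WT, and some lie below 0 in eWAT.

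Few single members passed the test over all genes within a genotype. In K107R iWAT 3 members were called higher and 0 lower, where 1.92% of all genes were called higher; in WT iWAT 2 were called higher and 0 lower, where 0.9% were. Averaged over both genotypes 8 members were called higher (5 of 48 large, 3 of 29 small) and 0 lower, where 3.11% of all genes were called higher. With the replicate block the counts were 25 in K107R, 7 in WT and 35 in the average, all higher, where 6.61%, 4.02% and 9.3% of all genes were called higher.

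The largest change was that of Mrpl12 (chromosome 11, 120484613 to 120489065, GRCm38), the relative of bacterial L7/L12 in the stalk of the large subunit, which also binds the mitochondrial RNA polymerase. It stood at 119 and 110.5 FPKM in K107R iWAT with rosiglitazone, against 59.5 and 59.5 FPKM with vehicle. In WT iWAT it stood at 106.5 and 97.8 FPKM with rosiglitazone, against 60.9 and 61.5 FPKM with vehicle. The 4 treated libraries lay far above the 4 vehicle libraries, which differed by little among themselves. The log2 change was 0.94 (SE 0.11, adjusted p = 0.000878, limma) in K107R and 0.73 (SE 0.11, adjusted p = 0.00942, limma) in WT. The average over genotypes was a 1.78-fold rise of FPKM + 1, and in the WT contrast the call was lost without any of the 4 WT iWAT libraries (adjusted p up to 0.0901).

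Mrps18b (chromosome 17, 35910379 to 35916389), 1 of the 3 mammalian relatives of bacterial S18 and a small subunit protein, had the next largest change in the average over genotypes (0.61) and in WT. In K107R other members had larger estimates that were not called, such as Mrps9 (0.70, SE 0.23, adjusted p = 0.159, limma). It had 60.1 and 69.2 FPKM in K107R iWAT with rosiglitazone against 40.7 and 41.1 FPKM with vehicle. In WT iWAT it had 59.1 and 66.4 FPKM with rosiglitazone against 42.0 and 40.9 FPKM with vehicle. Again no treated library overlapped a vehicle library, and the 2 genotypes had near-equal levels in each treatment. The log2 change was 0.64 in K107R (SE 0.12, adjusted p = 0.0119, limma) and 0.58 in WT (SE 0.12, adjusted p = 0.0374, limma).

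Its relatives went along to different degrees. Mrps18a (chromosome 17, 46110986 to 46128910), the relative placed in the large subunit, had 73.4, 70.4, 64.1 and 74.1 FPKM in the 4 iWAT rosiglitazone libraries. Its 4 vehicle libraries had 49.9, 50.5, 51.2 and 52.2 FPKM, with no overlap, and the average log2 change was 0.46 (SE 0.09, adjusted p = 0.0143, limma). Mrps18c, the third relative, ranged widely between replicate numbers. It had 54.5 and 22.3 FPKM in K107R iWAT with rosiglitazone against 43.3 and 19.1 FPKM with vehicle, and 50.7 and 24.3 FPKM in WT iWAT with rosiglitazone against 41.7 and 17.1 FPKM with vehicle. Each treated library was above the vehicle library of its own number and genotype, while the groups overlapped; the average log2 change of 0.32 had an SE of 0.42 and was not called.

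Of the large subunit, Mrpl18 (chromosome 17, 12911349 to 12916345), the relative of the bacterial 5S rRNA-binding protein L18, was called in K107R iWAT and in the average. It had 71.9 and 66.2 FPKM in K107R with rosiglitazone against 47.1 and 41.5 FPKM with vehicle, and 61.7 and 60.8 FPKM in WT with rosiglitazone against 52.5 and 39.7 FPKM with vehicle. The lowest treated library was thus above the highest vehicle library. The average log2 change was 0.52 (SE 0.10, adjusted p = 0.0140, limma).

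Mrpl13, Mrpl20 and Mrpl34, relatives of bacterial L13, L20 and L34, and Mrps5, the relative of bacterial S5, completed the 8 members called in the average over genotypes. Mrps5 (chromosome 2, 127587222 to 127606829) had 38.6, 41.9, 37.2 and 49.2 FPKM with rosiglitazone and 27.3, 23.3, 28.8 and 32.6 FPKM with vehicle, and rose by 0.56 on the log2 scale (adjusted p = 0.0347, limma). Mrpl34 (chromosome 8, 71464959 to 71465747) had 59.0, 65.0, 50.1 and 46.4 FPKM with rosiglitazone and 40.7, 35.9, 34.4 and 37.6 FPKM with vehicle, and rose by 0.55 (adjusted p = 0.0487, limma). Mrpl20 (chromosome 4, 155802878 to 155809975) rose by 0.45 (adjusted p = 0.0355, limma) and Mrpl13 (chromosome 15, 55534094 to 55557748) by 0.41 (adjusted p = 0.0287, limma). In each of these 4 genes the 4 treated libraries did not overlap the 4 vehicle libraries.

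These calls differed in how much they rested on single libraries. In the average over genotypes Mrpl12 and Mrps18b were called in all 16 fits that each left out 1 library. Mrpl18 was not called without K107R rosiglitazone replicate 1, K107R vehicle replicate 2 or either WT rosiglitazone library of iWAT (adjusted p up to 0.0614). Mrps18a was not called without K107R rosiglitazone replicate 1, WT rosiglitazone replicate 2 or either WT vehicle library of iWAT (adjusted p up to 0.0684). The calls of Mrpl20, Mrps5, Mrpl13 and Mrpl34 were lost in 9, 10, 11 and 14 of the 16 fits, those without eWAT K107R rosiglitazone libraries included (adjusted p up to 0.141, 0.135, 0.116 and 0.159). Within K107R iWAT, Mrps18b was lost without rosiglitazone replicate 2 or either vehicle library of that group pair (adjusted p up to 0.116), and Mrpl18 in 13 of 16 fits (adjusted p up to 0.234). Within WT iWAT, Mrps18b was lost in 12 of 16 fits (adjusted p up to 0.319).

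**Figure D3:**
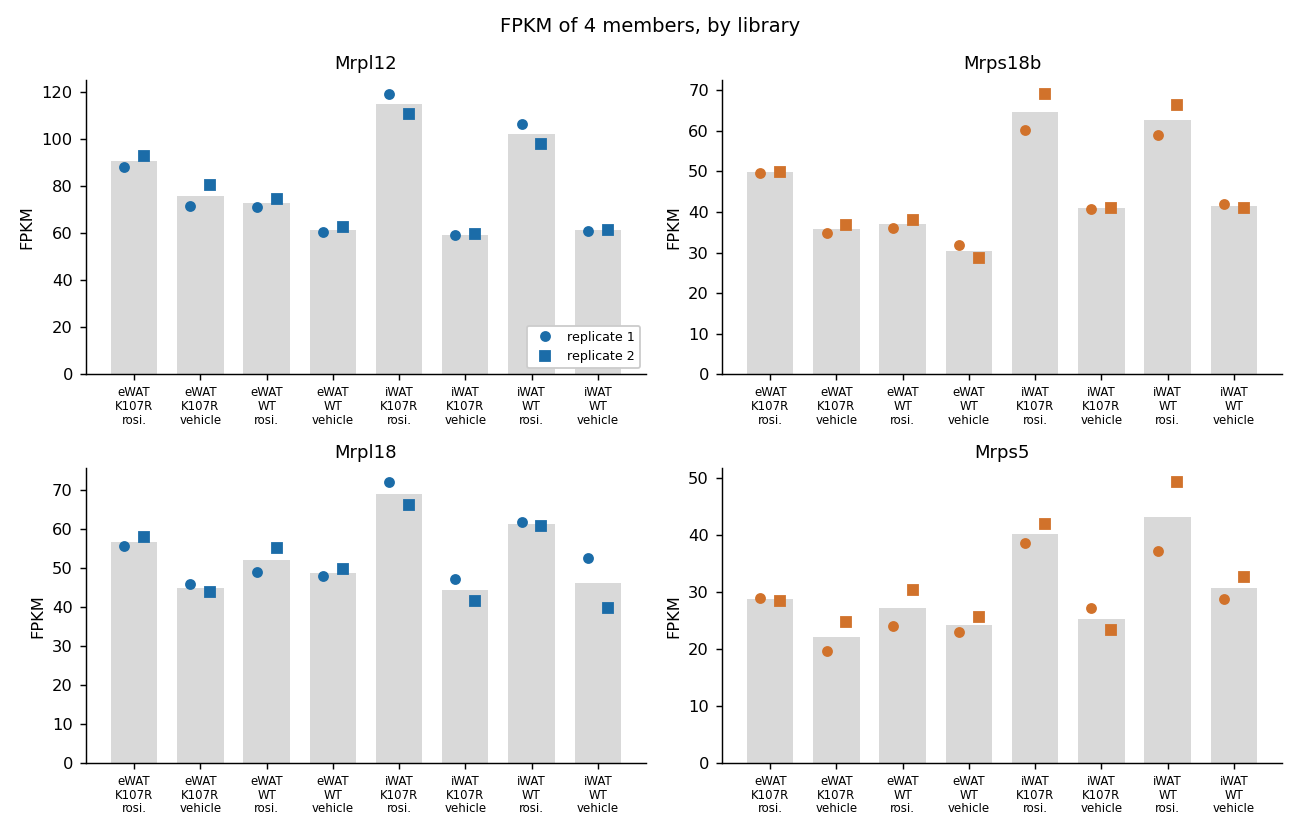
FPKM of Mrpl12, Mrps18b, Mrpl18 and Mrps5 in each library (points, by replicate number) with the mean of each group of 2 libraries (grey bars). In iWAT each rosiglitazone point of these 4 genes lies above each vehicle point, and for Mrpl12 the eWAT points lie between 60.7 and 92.8 FPKM.

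The libraries were also rescaled by the median ratio of their genes to the geometric mean. All 77 changes stayed above 0 in each genotype, with medians of 0.40 in K107R and 0.28 in WT. The rescaled sums of all members in iWAT were 3396 and 4818 in K107R and 3107 and 4322 in WT with rosiglitazone, against 2514 and 3537 in K107R and 2447 and 3566 in WT with vehicle. Treated and vehicle libraries thus overlapped after rescaling, while each treated library was above the vehicle library of its own genotype and number. Of the 8 members called in the average, 0 were called after rescaling alone, and 9 other members were (3.27% of all genes were called higher): Mrpl16, Mrpl22, Mrpl3, Mrpl30, Mrpl37, Mrpl39, Mrps22, Mrps33 and Mrps36. With rescaling and the replicate block together 40 members were called higher (11.5% of all genes were), all 8 among them, and 26 of these 40 were also among the 35 called with the block alone. For Mrpl12 the adjusted p was 0.0675 after rescaling alone and 0.000471 with both (limma). Within K107R iWAT rescaling alone called 4 members, with 0 of the 3 called as deposited among them. There 287 of 13669 genes were called higher. Within WT iWAT it called 0 members, where 136 of 13669 genes were called higher. The 9 members named here, like those named from the block, were chosen after their values were seen.

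Several members are known from human oxidative phosphorylation disease, Mrpl12 among them. The average log2 change in iWAT was 0.50 for Mrps22, 0.46 for Mrps34, 0.39 for Mrps7, 0.37 for Mrps2, 0.35 for Mrpl3, 0.35 for Mrps16, 0.23 for Mrpl44 (which carries a ribonuclease III-like fold) and 0.08 for Mrps25. On the deposited scale none of these 8 was called without the block, and Mrps22, Mrps34, Mrps7 and Mrps16 were called with it. Mrps12, which lies at the decoding site, had a change of 0.23, and Mrpl11, in the stalk base, of 0.24. Mrps30 had 0.27, Mrpl42 0.47, Mrps15 0.44 and Mrpl33 0.20, and Mrps36, the one that belongs to the dehydrogenase, 0.48. The smallest of all 77 changes was that of Mrps25.

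Of the 8 called members, 4 had a single RefSeq promoter window with at least 100 bases free of annotated exons, and these are shown because motifs of the nuclear respiratory factors NRF1 and GABP (an ETS family factor) are known in promoters of mitochondrial genes. RefSeq promoter windows (GRCm38.p6) existed for 68 of the 77 members, 74 windows in all, and the 250 bases before each start were searched on both strands. The sequences below end before the first annotated exon, run 5′ to 3′ on the plus strand and have the matched core in capitals.
Mrpl12, chr11:120484387-120484612, plus strand, with an NRF1 core match: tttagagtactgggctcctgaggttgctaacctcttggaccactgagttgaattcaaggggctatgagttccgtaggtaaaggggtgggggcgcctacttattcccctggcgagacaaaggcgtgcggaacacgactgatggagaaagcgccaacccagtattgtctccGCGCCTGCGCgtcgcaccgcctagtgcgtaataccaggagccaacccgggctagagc
Mrps18a, chr17:46110754-46110985, plus strand, with an ETS core match: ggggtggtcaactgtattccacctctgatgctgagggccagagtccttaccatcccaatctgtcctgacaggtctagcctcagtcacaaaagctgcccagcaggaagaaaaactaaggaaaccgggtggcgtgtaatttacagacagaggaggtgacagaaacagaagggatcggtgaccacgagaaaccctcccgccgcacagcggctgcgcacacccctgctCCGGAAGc
Mrpl34, chr8:71464676-71464925, plus strand, with an ETS core match: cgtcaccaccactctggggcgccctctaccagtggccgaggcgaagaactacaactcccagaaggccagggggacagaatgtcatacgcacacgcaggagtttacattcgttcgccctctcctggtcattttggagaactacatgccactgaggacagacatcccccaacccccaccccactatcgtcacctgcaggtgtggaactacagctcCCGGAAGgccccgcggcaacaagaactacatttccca
Mrpl20, chr4:155802628-155802877, plus strand, with no match: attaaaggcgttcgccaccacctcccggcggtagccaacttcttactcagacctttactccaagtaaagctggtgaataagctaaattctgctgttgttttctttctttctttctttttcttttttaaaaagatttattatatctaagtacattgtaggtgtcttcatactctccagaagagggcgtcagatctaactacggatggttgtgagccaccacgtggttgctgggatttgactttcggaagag
The ETS core CCGGAAG was in 17 of the 74 member windows (23%), in 12.5% of windows of genes tested and in 6.91% of all windows. The NRF1 core, GCGCA and GCGC with 1 base of any kind between them, was in 10 member windows (13.5%), in 7.4% of windows of genes tested and in 3.74% of all. The YY1 core AAGATGGCG was in 2 member windows (2.7%), in 1.1% of windows of genes tested and in 0.606% of all. A PPAR response element, AGGTCA repeated with 1 base between, and the estrogen-related receptor core TCAAGGTCA were in 0 member windows, in 0.0457% and 0.267% of windows of genes tested, and in 0.0335% and 0.387% of all windows. A match describes letters only, and the absence of one says only that these letters are not in the window.

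Genes that build or serve the mitochondrial ribosome were counted in the same iWAT average. Over all genes 3.11% were called higher there, 9.3% with the block and 3.27% after rescaling. Of 17 mitochondrial translation factors 5 were called higher and 0 lower, with a median of 0.33; 7 were with the block and 1 after rescaling. They were Gfm1 (0.70) and Gfm2 (0.53), the elongation factor and the recycling factor of the G family, the Cox1 translational activator Taco1 (0.49), and Lrpprc (0.47) and Slirp (0.45), which together stabilise mitochondrial mRNAs. Gfm1, for example, had 36.3, 31.8, 32.3 and 31.6 FPKM with rosiglitazone and 22.7, 14.5, 24.0 and 19.8 FPKM with vehicle, with no overlap.

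Of 26 assembly factors 3 were called higher and 0 lower (Rpusd3 0.57, Rnmtl1 0.54 and Ftsj2 0.47, which modify ribosomal RNA or bind it), with a median of 0.21; 8 were with the block and 0 after rescaling. Of 22 aminoacyl-tRNA synthetases and amidotransferase subunits 1 was called (Gars 0.65), of 20 transcription and RNA processing genes 1 (Hsd17b10 0.37) and of 9 regulators of mitochondrial biogenesis 1, the coactivator Ppargc1b (0.52). The list of 20 also holds genes of mitochondrial DNA, such as the polymerase Polg and the topoisomerase Top1mt, and the protease Lonp1. With the block 9 synthetases, 6 transcription and RNA processing genes and 2 regulators were called higher, and after rescaling 0, 1 and 0. The median of those 9 regulators was -0.06, close to the 0.02 of all genes. Of 6 mitochondrial ribosome proteins with other symbols 0 were called by limma (median 0.27, and 0 at an unadjusted p under 0.05), and with the block 1 was, Ptcd3 (0.63). Of 77 nuclear-encoded subunits of the respiratory chain and ATP synthase 33 were called higher and 2 lower, with a median of 0.67, while of 76 proteins of the cytosolic ribosome 0 were called (6 at an unadjusted p under 0.05) and the median was 0.17. With the block 66 respiratory chain subunits and 5 cytosolic ribosome proteins were called higher, and after rescaling 16 and 0; over all genes 9.3% and 3.27% were. The median of the mitochondrial ribosome, at 0.37, thus lay between those of the cytosolic ribosome and of the respiratory chain.

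Markers of cell types moved in the same libraries. The 6 white fat markers summed to 10630 to 13970 FPKM with rosiglitazone in iWAT against 7463 to 8607 FPKM with vehicle, and 3 of the 6 were called higher while 2 had changes below 0 (lowest -0.53, not called). The 6 brown fat markers (Ucp1, Cidea, Elovl3, Cox8b, Cox7a1 and Ppargc1a) summed to 234 to 342.6 FPKM against 114.5 to 164.9 FPKM, and 3 of 6 were called higher; none of either list was at 0 in a group. The 5 skeletal muscle markers were at 22.8 and 28.9 FPKM in K107R with rosiglitazone against 84.2 and 83.1 FPKM with vehicle, and at 11.2 and 14.7 FPKM in WT with rosiglitazone against 23.7 and 25.8 FPKM with vehicle, and 4 of 5 were called lower. Lymphocyte markers were lower in K107R (3 of 5 T and NK cell and 2 of 6 B and plasma cell markers called) and higher in WT (1 of 6 B and plasma cell markers called). The 6 B and plasma cell markers summed to 34.7 and 27.5 FPKM in K107R with rosiglitazone against 108.9 and 83.1 FPKM with vehicle, and to 274 and 239 FPKM in WT with rosiglitazone against 184 and 141 FPKM with vehicle. The 5 T and NK cell markers summed to 12.35 and 10.99 FPKM in K107R with rosiglitazone against 31.2 and 29.03 FPKM with vehicle, and to 68.3 and 69.5 FPKM in WT with rosiglitazone against 46.8 and 43.9 FPKM with vehicle. The part of these markers in the change of the mitochondrial ribosome genes was not tested.

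In epididymal fat the same treatment gave smaller changes. The 77 members summed to 3197 and 3583 FPKM in K107R eWAT with rosiglitazone against 3004 and 3197 FPKM with vehicle, and to 2941 and 3244 FPKM in WT eWAT with rosiglitazone against 2797 and 2862 FPKM with vehicle, so that treated and vehicle libraries were apart within WT and overlapped over both genotypes. The change was above 0 in 67 of 77 members in K107R (median 0.29, all genes 0.17) and in 73 of 77 in WT (median 0.13, all genes 0.03). Rescaling moved the median of all genes there by over 0.1, to -0.00, and that of the members to 0.08, with 48 of 77 above 0. In WT the rescaled median was 0.12, with 73 of 77 above 0.

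No member was called in K107R eWAT (5 at an unadjusted p under 0.05) or in WT eWAT (2 at an unadjusted p under 0.05) by limma, where 4.89% and 0.446% of all genes were called in either direction. With the replicate block 3 members were called higher in K107R, Mrps27, Mrps18b and Mrpl30, where 5.05% of all genes were called higher, and 0 in WT, where 1.02% were. In the average over genotypes Mrps18b alone was called (1.59% of all genes were called higher), and 4 were with the block: Mrps18b, Mrps27, Mrpl30 and Mrpl12 (5.52% of all genes).

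Mrps18b had 49.7 and 49.9 FPKM in K107R eWAT with rosiglitazone against 34.9 and 36.9 FPKM with vehicle, and 36.0 and 38.1 FPKM in WT eWAT with rosiglitazone against 31.9 and 28.8 FPKM with vehicle. Treated and vehicle libraries were apart within each genotype, but the higher K107R vehicle library exceeded the lower WT treated library. The average log2 change was 0.37 (SE 0.08, adjusted p = 0.0266, limma); the call was lost without any of the 8 eWAT libraries (adjusted p up to 0.135) and after rescaling (0.26, adjusted p = 0.993, limma). Mrps27, a pentatricopeptide repeat protein of the small subunit, had 14.2 and 14.2 FPKM in K107R eWAT with rosiglitazone against 10.6 and 8.81 FPKM with vehicle, and 12.3 and 11.1 FPKM in WT with rosiglitazone against 10.95 and 10.3 FPKM with vehicle. Its average change of 0.32 had an adjusted p of 0.153, and of 0.0123 with the block (limma). Only Mrps23, Mrps27 and Mrps35 had 4 treated eWAT libraries above all 4 vehicle libraries, where 3.98% of all genes had.

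Mrpl12 had 88.3 and 92.8 FPKM in K107R eWAT with rosiglitazone against 71.5 and 80.6 FPKM with vehicle, and 71.0 and 74.6 FPKM in WT eWAT with rosiglitazone against 60.7 and 62.5 FPKM with vehicle. Its average change in eWAT, 0.25, was smaller than the 0.83 in iWAT, and the difference of the responses, eWAT minus iWAT, was -0.59 (SE 0.11, adjusted p = 0.0154, limma). It was the only member called in that test of the depot difference (1.93% of all genes were called lower), and the call was lost in 6 of the 16 fits without 1 library: eWAT K107R rosiglitazone replicate 1, eWAT WT rosiglitazone replicate 1, eWAT WT vehicle replicate 2, iWAT K107R rosiglitazone replicate 1, iWAT WT rosiglitazone replicate 1 and iWAT WT vehicle replicate 2 (adjusted p up to 0.0610). Rescaling alone also ended it (-0.68, adjusted p = 0.767, limma), and rescaling with the block did not (adjusted p = 0.0279). With the block 6 members were called, each with a smaller change in eWAT: Mrpl12, Mrpl53, Mrps12, Mrps34, Mrpl2 and Mrps26 (2.87% of all genes were called lower). The median difference was -0.15 for large and -0.20 for small subunit members, against 0.07 over all genes.

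The eWAT comparison of K107R mice rests on the vehicle libraries that hold epididymis markers. Those 4 markers were at 0.308 and 2.78 FPKM in K107R eWAT with rosiglitazone, against 1800 and 1502 FPKM with vehicle, and the 5 epithelium markers were at 7.20 and 7.31 FPKM against 75.6 and 93.5 FPKM. White fat markers summed to 8198 and 8587 FPKM in K107R eWAT with rosiglitazone against 5722 and 5809 FPKM with vehicle (1 of 6 called higher), and to 6184 and 6610 FPKM in WT eWAT with rosiglitazone against 4902 and 4951 FPKM with vehicle (0 of 6 called by limma, 3 at an unadjusted p under 0.05). Brown fat markers summed to 177 and 189 FPKM in K107R with rosiglitazone against 52.7 and 57.4 FPKM with vehicle (5 of 6 called higher), and to 62.9 and 65.7 FPKM in WT with rosiglitazone against 44.1 and 47.8 FPKM with vehicle (0 of 6 called by limma, 3 at an unadjusted p under 0.05). The part of these markers in the eWAT values was not tested. The fold changes of the WT contrast do not use these libraries.

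No member was called between genotypes. In eWAT, K107R against WT, 0 of 77 were called with vehicle (3 at an unadjusted p under 0.05), 0 with rosiglitazone (2 at an unadjusted p under 0.05) and 0 in the average (3 at an unadjusted p under 0.05) by limma, where 3.35%, 0.907% and 4.3% of all genes were called. In iWAT 0 of 77 were called with vehicle, with rosiglitazone or in the average, and 0 had an unadjusted p under 0.05, where 0.578%, 4.13% and 4.69% of all genes were called. The median log2 change of the members in eWAT was 0.01 with vehicle (all genes -0.13) and 0.17 with rosiglitazone (all genes 0.01). Rescaling moved the median of all genes with vehicle by over 0.1, to 0.01, and that of the members to 0.18. In iWAT the medians were -0.07 with vehicle (all genes -0.06) and 0.06 with rosiglitazone (all genes -0.01); rescaling turned the first to 0.01 and moved the second to 0.13.

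The members with the smallest p between genotypes were in eWAT. Mrpl12 in K107R eWAT exceeded WT eWAT within each treatment, with the values given above, by 0.30 on the log2 scale in the average (SE 0.08, adjusted p = 0.0549, limma). Mrps18b differed by 0.33 (SE 0.08, adjusted p = 0.0604, limma), with its 2 K107R libraries above its 2 WT libraries in each treatment. In the same average 4 of 4 epididymis markers, 4 of 5 epithelium markers and 3 of 6 brown fat markers (median 0.93) were called higher in K107R, and 3 of 6 B and plasma cell markers lower. With vehicle alone 4 epididymis, 4 epithelium and 1 brown fat marker were called higher. With rosiglitazone alone 0 epididymis, 0 epithelium and 4 brown fat markers were. There 4 of 5 epithelium markers had changes below 0 (median -0.52). The part of these markers in the genotype values was not tested. With the replicate block Mrps12, Mrps18b, Mrpl12, Mrps34 and Mrpl14 were called higher in the eWAT average, where 6.4% of all genes were called higher. The share of members was thus near that of all genes. With vehicle alone Mrps12 and Mrps26 were called, a smaller share than the 4.77% of all genes called higher.

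Mrps12 had 34.1 and 49.1 FPKM in K107R eWAT with rosiglitazone against 27.2 and 36.1 FPKM in WT, and 41.3 and 64.5 FPKM in K107R eWAT with vehicle against 28.5 and 40.0 FPKM in WT. Each K107R library was above the WT library of its number. The genotypes overlapped with rosiglitazone and not with vehicle, where the K107R libraries are those that hold epididymis markers. Other members named for the smallest p in eWAT were Mrpl40, with a log2 change of -0.44 with vehicle (adjusted p = 0.432), and Mrpl14, with 0.34 (adjusted p = 0.504, limma). With rosiglitazone Mrps27 had 0.26 (adjusted p = 1.0). In iWAT the members with the smallest p were Mrps5 (-0.27), Mrpl14 (0.21) and Mrpl24 (-0.16) with vehicle and Mrpl34 (0.36), Mrps23 (-0.23) and Mrpl12 (0.17) with rosiglitazone, each with an adjusted p of 0.737 or more (limma).

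The response to rosiglitazone was also compared between genotypes. In the interaction of genotype and drug 0 of 77 members were called in eWAT or iWAT, by limma with or without the block, where 2.53% of all genes were called in eWAT and 0.966% in iWAT without it. Without the block 0 members had an unadjusted p under 0.05 in either depot, and with it 2 had in eWAT and 1 in iWAT. In iWAT the response was larger in K107R for 58 of 77 members, with a median difference of 0.11 (all genes 0.03). In that contrast 3 of 5 T and NK cell markers (median -1.63), 2 of 6 B and plasma cell markers (median -1.95) and 1 of 5 skeletal muscle markers (median -1.14) were called lower, and their part in the difference was not tested. The smallest p were those of Mrpl53 (0.36, SE 0.25), Mrpl21 (0.35, SE 0.24) and Mrpl12 (0.21, SE 0.15), each with an adjusted p of 1.0 (limma). In eWAT the median difference was 0.16 (all genes 0.15), and rescaling turned it to -0.03 (all genes -0.02). The smallest p there were those of Mrps27 (0.38), Mrpl40 (0.35) and Mrpl18 (0.25), with an adjusted p of 0.995 each (limma).

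Between depots the set as a whole differed little in the average as deposited, while single pairs of libraries differed more. Averaged over genotype and drug, eWAT against iWAT, 0 of 77 members were called higher and 6 lower, where 19.9% and 12.5% of all genes were called higher and lower. The median log2 change was 0.03 for large and -0.10 for small subunit members, against 0.10 over all genes; rescaling moved these to -0.11, -0.24 and -0.01, so that the large subunit median turned its sign. In no member did the 8 eWAT libraries lie wholly above or below the 8 iWAT libraries, where 8.24% of all genes were wholly above and 2.59% wholly below. As deposited 39 members were above 0 and 38 below, and after rescaling 16 and 61. Higher in eWAT in K107R rosiglitazone pairs 1 and 2 were 1 and 44 of 77 members (38.7% and 73.9% of all genes). In WT rosiglitazone pairs 10 and 31 members were (49.6% and 63.9%). In vehicle pairs 34 and 60 were in K107R (46.5% and 63.6%), and 30 and 48 in WT (45.6% and 68.6%).

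The 6 members called lower in eWAT were Mrps18b, Mrps5, Mrpl27, Mrps27, Mrps28 and Mrpl40, a smaller share than the 12.5% of all genes called lower. Mrps18b had 28.8 to 49.9 FPKM in eWAT (median 36.4) against 40.7 to 69.2 FPKM in iWAT (median 50.5), a log2 change of -0.43 (SE 0.06, adjusted p = 0.000211, limma). Within vehicle libraries its eWAT values, at most 36.9 FPKM, lay below its iWAT values, at least 40.7 FPKM. Mrps5 had 19.7 to 30.4 FPKM (median 25.2) in eWAT against 23.3 to 49.2 FPKM (median 34.9) in iWAT, a change of -0.41 (adjusted p = 0.00604, limma). Mrpl27, the relative of bacterial L27 next to the peptidyl transferase centre, had 63.2 to 89.2 FPKM (median 74.7) in eWAT against 76.7 to 138.2 FPKM (median 97.0) in iWAT, a change of -0.43 (adjusted p = 0.0127, limma). Within vehicle libraries the depots overlapped for both Mrps5 and Mrpl27. There Mrps5 had 19.7 to 25.6 FPKM in eWAT and 23.3 to 32.6 FPKM in iWAT. Mrpl27 had 66.2 to 77.0 FPKM in eWAT and 76.7 to 112.8 FPKM in iWAT.

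Mrps27, Mrps28 and Mrpl40 changed by -0.23, -0.22 and -0.27 (adjusted p = 0.0326, 0.0337 and 0.0403, limma), and their calls were lost in 12, 10 and 11 of the 16 fits without 1 library (adjusted p up to 0.0820, 0.0841 and 0.101). Libraries of both depots were among those. Within vehicle libraries the depots overlapped for Mrps27, Mrps28 and Mrpl40. There Mrps28 had 37.5 to 41.9 FPKM in eWAT and 36.3 to 44.0 FPKM in iWAT. Mrps27 had 8.81 to 10.95 FPKM in eWAT and 10.5 to 12.7 FPKM in iWAT. Mrpl40 had 22.0 to 34.5 FPKM in eWAT and 26.9 to 36.1 FPKM in iWAT. The highest depot change was that of Mrps24 (0.98, SE 0.34, adjusted p = 0.0501, limma), with 8.79 to 47.4 FPKM in eWAT against 4.99 to 17.5 FPKM in iWAT. It shares exon bases with Urgcp on the same strand, so its value is uncertain.

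With the block 5 members were called higher and 17 lower in eWAT, where 34.8% and 21% of all genes were. After rescaling 2 were called higher and 15 lower (19.7% and 20% of all genes), and 3 of the 6 members called as deposited were among them, Mrps18b, Mrps27 and Mrpl40. With the block alone and with rescaling alone, the share of members called lower was thus near that of all genes. With both, 6 were called higher and 35 lower (31.2% and 32.9% of all genes), and the 6 members called as deposited were all among these 41.

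**Figure D4:**
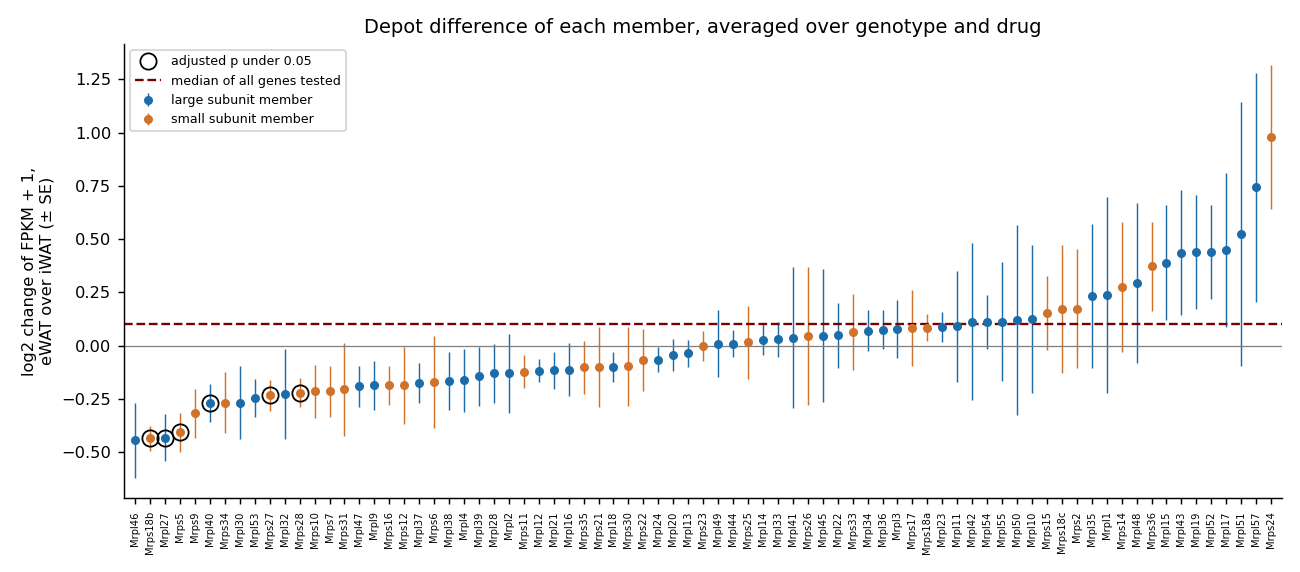
Log2 change of FPKM + 1, eWAT over iWAT averaged over genotype and drug, for each of the 77 members in order of change, with moderated SE bars (16 libraries); circles mark an adjusted p under 0.05 and the dashed line is the median of all genes tested. The 6 circled members lie between -0.43 and -0.22, and members with wide bars fill the upper end.

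Other lists were counted in the same contrast. Over all genes 19.9% were called higher and 12.5% lower, 34.8% and 21% with the block, and 19.7% and 20% after rescaling. The lower calls of the assembly factors lay near these shares. Of the 77 respiratory chain and ATP synthase subunits 1 was called higher and 26 lower in eWAT, with a median of -0.30, and of 76 cytosolic ribosome proteins 19 were called higher and 0 lower, with a median of 0.21. With the block 50 of those subunits were called lower and 39 of those ribosome proteins higher, and after rescaling 24 and 3. Of the aminoacyl-tRNA synthetases and amidotransferase subunits 5 of 22 were called lower (Iars2 -0.47, Sars2 -0.41, Qrsl1 -0.35 and Gars -0.29 among them). Of the 20 genes listed for transcription and RNA 5 were called lower, among them Mterf2 (-0.73), the DNA topoisomerase Top1mt (-0.54), the protease Lonp1 (-0.45) and Hsd17b10 (-0.32). Of 26 assembly factors 3 were called higher, among them Mterf4 (1.04), and 3 lower, among them Rpusd3 (-0.78). Of 17 translation factors 1 was called, Slirp (0.23), and of 9 regulators 1, Ppargc1b (-0.44). With the block 9 synthetases, 9 transcription and RNA genes, 6 assembly factors and 4 translation factors were called lower, and after rescaling 6, 5, 5 and 3. Among the regulators Ppargc1a and Ppargc1b were called lower with the block, and Pprc1, Esrra and Myc higher. After rescaling 1 regulator was called lower and 0 higher. The 6 proteins with other symbols had 0 calls (1 at an unadjusted p under 0.05, limma), and 1 higher and 1 lower with the block. Cell type markers differed in the same libraries: 5 macrophage markers summed to 3422 to 4639 FPKM in eWAT against 865 to 1345 FPKM in iWAT, and the 6 white fat markers to 4902 to 8587 FPKM against 7463 to 13970 FPKM. Brown fat markers (5 of 6), skeletal muscle markers (5 of 5), B and plasma cell markers (5 of 6) and T and NK cell markers (4 of 5) were called lower in eWAT. Mesothelium (3 of 3), epithelium (5 of 5) and epididymis markers (4 of 4) were called higher. Their part in the depot values was not tested.

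The spread that limits these tests lay between replicate numbers. In 7 of the 8 groups the median member was lower in library 2 than in library 1, by 0.09 to 0.46 on the log2 scale, and the exception was eWAT K107R rosiglitazone (0.07). The 17 members with long transcripts (a median coding transcript of 2000 nt or more) had a median of -0.30 to -0.81 in those 7 groups, while the 36 members with short ones (under 1000 nt) had a median of -0.21 to 0.05. Over all members the rank correlation (Spearman) of this difference with length was only -0.29 to -0.22 in those 7 groups. Of the 17, Mrps5, Mrps16 and Mrps26 were on average not lower in library 2. Of the 36, Mrpl48, Mrpl42, Mrpl17 and Mrpl41 had averages of -1.21, -1.17, -1.12 and -1.04 over the 7 groups. Mrpl51 was the extreme, lower by 2.02 on average over the 7 groups: it had 5.96 FPKM in library 2 and 39.2 FPKM in library 1 of K107R iWAT with rosiglitazone. Mrpl57 fell by 1.70 and Mrpl1 by 1.49, while Mrps26 was higher by 0.98 and Mrpl52 by 0.60. The cause was not tested.

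**Figure D5:**
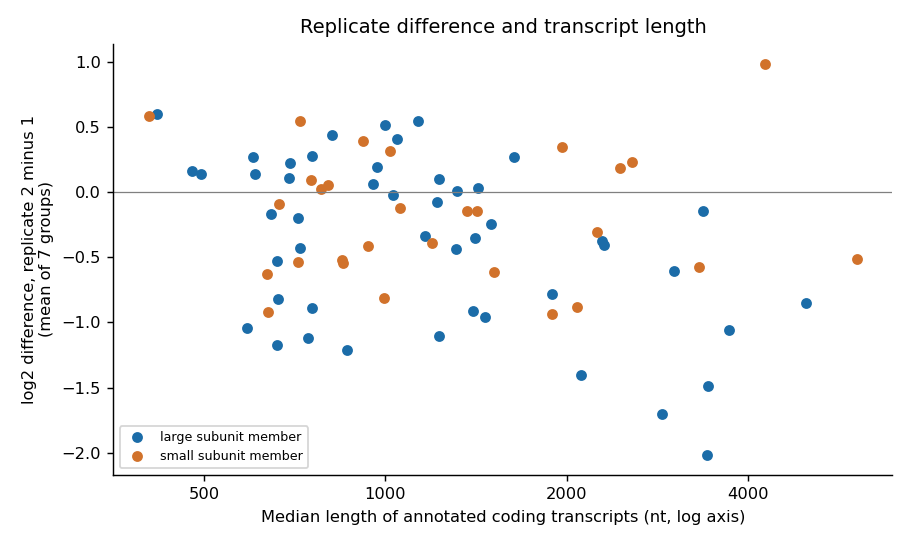
Log2 difference of FPKM + 1 between library 2 and library 1, averaged over the 7 groups other than eWAT K107R rosiglitazone, against the median length of a member's annotated coding transcripts in nt (log axis); each point is a member. The lowest points, at -2.02, -1.70 and -1.49, belong to members with transcripts above 2000 nt, and Mrps26, also long, is the highest at 0.98. Short members are among the low points too, such as Mrpl48 (865 nt, -1.21) and Mrpl42 (661 nt, -1.17).

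Some values can hold reads of other genes. Mrps24, Mrps34 and Mrps6 share exon bases with a tested gene on the same strand (Urgcp, Nme3 and Slc5a3), and 20 members share some with a tested gene on the opposite strand, which matters only if reads were counted without strand, a setting not given in the sources used here. Among those 20 are Mrpl13 and Mrpl18, which overlap Mtbp and Tcp1. Other members share exon bases with annotated genes that were not tested. On the opposite strand these include Mrpl12 with Gm16755 (200 bases) and Mrps18b with Gm16279 (638 bases). On the same strand they include Mrpl53 with Gm42688 (695 bases). Processed pseudogenes named after Mrps36 (3), Mrpl23 (1) and Mrpl48 (1) are annotated, so these 3 members are uncertain too.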

How the data were processed

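The authors deposited FPKM per gene. The submitters' processing notes name the programs CASAVA (1.8.2), TopHat2 (2.0.12) and Cufflinks (2.2.1), and mm10 as genome build. Annotation, strand setting and any scaling between libraries are not given in the sources used here. On the deposited values, log2(FPKM + 1) was fitted with limma 3.58.1 in R 4.3.3 for genes that had 1 FPKM or more in 2 libraries. The model held 8 group means with a trended prior variance, and 16 contrasts were tested two-sided with Benjamini-Hochberg adjustment over all genes tested; the code was tested on simulated data. Members and lists were chosen with earlier results of these data known.

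Named members are the 5 highest and 5 lowest by mean FPKM, up to 6 called per direction and contrast (else the 3 with the smallest p), members with a known role, and up to 4 called genes per related list. Positions and lengths came from GENCODE on GRCm38, promoter windows from RefSeq on GRCm38.p6. Pairing was taken from the replicate number in the sample titles, whose meaning is not stated there. Deviations from the group means of same-numbered libraries correlated at over 0.1 in 28 of 28 pairs of groups (0.12 to 0.28 in the 7 pairs with eWAT K107R rosiglitazone, 0.50 to 0.79 in the other 21), so a fit with the replicate block is given where it changes a call. Other settings tried were a smaller pseudocount (0.1), all genes unfiltered, median-ratio rescaling, library weights, 1 depot at a time, and fits without single libraries or without both eWAT K107R vehicle libraries. Rescaling with the block, and the block without the eWAT K107R rosiglitazone libraries, were added after seeing the data.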

Additional observations from a re-analysis of the deposited data

Results flagged for a closer look

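Mrpl12 was called in a test of the difference between its rosiglitazone responses in the 2 depots. Its log2 change averaged over genotypes was 0.25 in eWAT and 0.83 in iWAT, a difference of -0.59 (SE 0.11, adjusted p = 0.0154, limma with Benjamini-Hochberg adjustment), and each of the 4 same-numbered pairs was higher with rosiglitazone in each depot. Of the 77 members it was the only one past that test without the replicate block, where 1.93% of all genes were called lower. The call depended on single libraries, as given above. Its eWAT side includes the K107R vehicle libraries, which hold epididymis markers, and their part was not tested. The adjusted p was 0.00460 with the replicate block, 0.767 after rescaling and 0.0279 with both. Groups hold 2 libraries each, so no library could be tested as standing apart within its group.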

How the results depend on the processing

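The number of members called was within 1.5 times the first count in all 16 contrasts with a pseudocount of 0.1 or without a filter, and in the 10 contrasts that exist without the eWAT K107R vehicle libraries. Other settings moved it, and the cause was not tested. The share of all genes called moved with the setting too, so a changed count alone is not a result about the members. No share over all genes is given for library weights, 1 depot at a time, or fits without some of the libraries.

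For rosiglitazone in iWAT, averaged over genotypes, 8 members were called, against 35 with the replicate block, 45 with the block and without the eWAT K107R rosiglitazone libraries, 40 with rescaling and the block, 2 with library weights and 1 with the iWAT libraries alone. In K107R iWAT the 3 calls became 25, 35, 26, 1 and 0 in the same order, and after rescaling alone 4 were called, with 0 of the 3 among them. In WT iWAT the 2 calls became 7, 14, 5, 1 and 0, and 0 after rescaling alone. Over all genes 3.11%, 1.92% and 0.9% were called higher in the average, in K107R and in WT. With the block 9.3%, 6.61% and 4.02% were, and with rescaling and the block 11.5% were in the average. For rosiglitazone in eWAT the average went to 4 with the block, 2 with rescaling and the block, 3 with library weights, 0 after rescaling and 0 with the eWAT libraries alone, where 1 was called at first. In K107R eWAT, with 0 at first, it was 3, 3 and 1 with the block, with rescaling and the block, and with library weights. Over all genes 1.59% were called higher in the eWAT average and 5.52% with the block, and 5.05% with the block in K107R eWAT. The difference of the response between depots had 1 call, against 6 with the block, 0 after rescaling and 5 with both. Over all genes 1.93% were called lower in that contrast, and 2.87% with the block.

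Between genotypes, with 0 calls at first, eWAT with vehicle had 2 with the block, 5 with the block and without the eWAT K107R rosiglitazone libraries, and 6 with rescaling and the block. The eWAT average had 5 with the block, 7 with rescaling and the block and 2 with library weights, and eWAT with rosiglitazone had 2 with library weights. With the block 4.77% of all genes were called higher in eWAT with vehicle, and 6.4% in the eWAT average. The iWAT average had 1 with the block and without the eWAT K107R rosiglitazone libraries and 1 with rescaling and the block. Between depots the 6 calls became 22 with the block, 21 with the block and without those libraries, 17 after rescaling and 41 with both. Over all genes 19.9% were called higher and 12.5% lower between depots, and 34.8% and 21% with the block. After rescaling the shares were 19.7% and 20%, and with both 31.2% and 32.9%. The pairing by replicate number changed no other count by over 1.5 times.

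Leaving out 1 library at a time gave 3 to 7 calls between depots, 2 to 9 for rosiglitazone in iWAT on average, 1 to 4 in K107R iWAT, 0 to 2 in WT iWAT, 0 to 1 in eWAT on average, 0 to 2 for the depot difference of the response, 0 to 1 for the genotype average in eWAT, and 0 in the other contrasts. Among log2 changes of members called in any fit, 2232 values kept their direction and side of the threshold, 249 passed it, 177 no longer did and 1 reversed: Mrps26, K107R over WT in eWAT with vehicle, at -0.13 without eWAT K107R vehicle replicate 2, 1.13 without replicate 1 of that group and 0.50 with both. Without counts, depth limits the low members in a way that cannot be given.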
